A study of Mus musculus with 18 samples.

Results

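Fos, Fosb, Jun, Junb, Jund, Egr1, Ier2, Btg2, Dusp1 and Nr4a1 are 10 of the 17207 genes in the deposited MIN6 tables, and all 10 passed the count minimum in both mRNA-seq and Ribo-seq. They were picked by name as immediate early genes, with earlier results of these libraries known, so their own changes are given below as a description with standard errors and without p-values. MIN6 is a mouse insulinoma line that makes and secretes insulin. The cells received DMSO for 18 h (control), 200 µM CPA for 1 h (CPA1) or 200 µM CPA for 18 h (CPA18), in 3 experiments with 1 mRNA-seq and 1 Ribo-seq library each, 18 libraries in all. CPA (cyclopiazonic acid) inhibits the pump that fills the endoplasmic reticulum (ER) with calcium. The controls had DMSO for 18 h only, so the effect of CPA and of the shorter incubation cannot be told apart in CPA1. Every culture was rinsed in the cold with the elongation inhibitor cycloheximide at harvest.

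Immediate early genes are transcribed within minutes of a stimulus, from factors that are already in the cell, and therefore without new protein synthesis. Calcium entry, cAMP and MAP kinase signals reach them through the factors CREB, SRF and the ternary complex factors. Their mRNAs and most of their proteins are short-lived, so that a pulse ends quickly. Fos and Jun family proteins pair to form AP-1, Egr1 and Nr4a1 are DNA-binding factors of other families, Ier2 is a small nuclear protein, and Btg2 and Dusp1 restrain proliferation and MAP kinases. In β-cells, glucose and depolarisation are known to induce several of them.

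Levels are given in RPKM, reads normalised to transcript length and to the total of the library, summed over a gene's transcripts, and the 3 values of a group are those of experiments 1, 2 and 3 in that order. Changes are log2 fold changes ± SE from edgeR fits over all genes tested (8915 in mRNA-seq, 5913 in Ribo-seq) that pair the treatments of an experiment. Total counts ran from 168129 to 4755030 per library, and the shallowest were the Ribo-seq libraries of CPA18 in experiments 1 and 2. All 10 β-cell markers examined had reads in each of the 9 mRNA-seq libraries, with Ins2 from 26420 to 365200 RPKM. Of 19 markers of other islet, exocrine, stromal and blood cells, 1 (Gcg, the glucagon gene of α-cells) had reads in all 9. The other 18 summed to 5.74 to 24.9 RPKM in control, 5.21 to 12.4 in CPA1 and 1.59 to 11.5 in CPA18, and Pnlip (acinar) and Ptprc (blood) were at 0 in all 9. In bulk libraries a change in the share of cells that express a gene and a change in RNA per cell cannot be told apart.

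The 10 genes share a compact structure that their selection did not use. Of the 10, 9 have at most 4 exons, against 21.9% of 8903 tested genes with a RefSeq model in GRCm38.p6. Jun, Junb, Jund and Ier2 have 1 exon, Egr1 and Btg2 have 2, Fos, Fosb and Dusp1 have 4, and Nr4a1 has 7. Their median genomic span was 3286 nt against 18925 nt over all these genes, whereas their spliced lengths were alike, with medians of 2678 and 2839 nt. The AU-rich pentamer ATTTA, a known feature of unstable mRNAs, occurs at least once in the 3′UTR of 9 of the 10 (64.4% of all genes) and at least 3 times in 5 of them (32.3%). Btg2 holds 5 copies, Fos, Jun and Dusp1 hold 4 each, Nr4a1 holds 3, and Ier2 holds none. The longer element TTATTTATT occurs in Fos and Dusp1 and in 7.17% of all genes.

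Promoter sequences show which of these genes carry a CREB-type letter string close to the start of transcription. In RefSeq promoter windows of GRCm38.p6, from 250 bases before to 50 bases after the start, 8 of the 10 genes had a window, and Egr1 and Ier2 are named only. The cAMP response element TGACGTCA, searched with its reverse complement, which is the same string, occurs in 2 of the 8 (Btg2 and Dusp1) and in 1.79% of 32851 windows. The shorter TGACG, on either strand and contained in TGACGTCA, occurs in 6 of the 8 and in 20.8% of all windows. Those 6 stretches are shown on the strand of the gene, 5′ to 3′, with 30 bases on each side and the matching letters in capitals (CGTCA is TGACG on the other strand).
Fos: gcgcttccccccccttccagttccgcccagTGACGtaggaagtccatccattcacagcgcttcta
Fosb: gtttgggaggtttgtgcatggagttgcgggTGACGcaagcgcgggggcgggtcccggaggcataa
Junb: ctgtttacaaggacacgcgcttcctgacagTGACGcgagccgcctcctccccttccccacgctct
Nr4a1: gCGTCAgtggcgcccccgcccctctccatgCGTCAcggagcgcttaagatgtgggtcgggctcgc
Btg2: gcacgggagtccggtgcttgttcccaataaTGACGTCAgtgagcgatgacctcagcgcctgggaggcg
Dusp1: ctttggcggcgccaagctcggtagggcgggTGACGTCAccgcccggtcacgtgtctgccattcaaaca
The Fos stretch is chr12:85473794-85473858 (plus strand), positions -96 to -32 from the start. Fosb is chr7:19310071-19310135 (minus strand), -90 to -26. Junb is chr8:84978820-84978884 (minus strand), -136 to -72. Nr4a1 is chr15:101266776-101266840 (plus strand), -70 to -6, and its full window holds 4 matches in all, of which 2 are shown. Btg2 is chr1:134079284-134079351 (minus strand), -196 to -129, and Dusp1 is chr17:26508578-26508645 (minus strand), -173 to -106. A further TGACG in Fos at -129 to -125 and another in Dusp1 at -191 to -187 are not shown. Jun and Jund had no TGACG in their windows. The AP-1 string TGANTCA was found in 0 of the 8 (7.81% of all windows) and the CArG box of SRF in 0 of the 8 (1.63%), which says only that these letters are not in the windows searched. Of the general promoter elements, GGGCGG occurred in 6 of 8 (35.7% of windows), CCAAT in 3 (37.4%) and TATAA in 2 (24.9%). A match is a description of the letters and was not tested as a binding site.

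As a group, the 10 genes were raised 1 h after CPA and had come down again by 18 h. They held 0.134% ± 0.042 of the mRNA-seq reads of a control library (SD, n = 3), 0.405% ± 0.026 in CPA1 and 0.133% ± 0.064 in CPA18. Of Ribo-seq reads they held 0.127% ± 0.031, 0.677% ± 0.216 and 0.111% ± 0.035 for control, CPA1 and CPA18. In both assays all 3 CPA1 libraries lay above all control and CPA18 libraries. Apart from Jund, each gene was highest at CPA1 in all 3 experiments and in both assays, which held for 1.32% of all genes in mRNA-seq and for 5.55% in Ribo-seq.

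**Figure D1:**
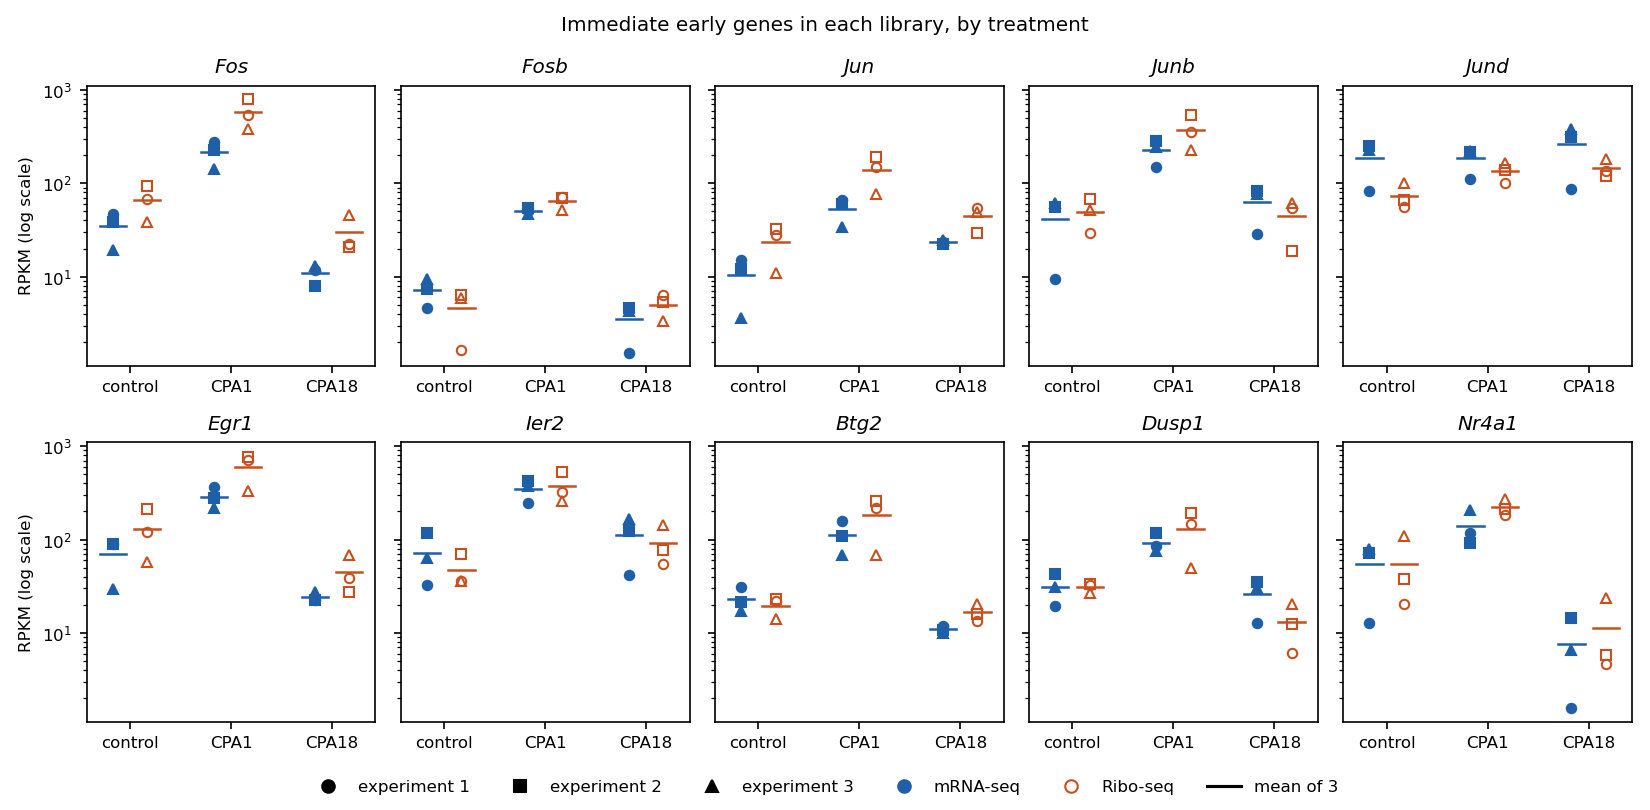
RPKM of each of the 10 genes on a log axis in control, CPA1 and CPA18, with mRNA-seq filled in blue, Ribo-seq open in orange, 1 point per library, marker shape for the experiment and a bar for the mean of 3. Every gene but Jund peaks at CPA1 in both assays, and the mRNA-seq means of Nr4a1, Fos and Egr1 lie below control at CPA18.

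Fos and Fosb encode the Fos partners of AP-1, which bind DNA only when paired with a Jun protein. Fos (NM_010234.3, chr12:85473890-85477274, plus strand) had mRNA-seq values of 47.3, 38.1 and 19.5 RPKM in control, 280, 228 and 143 in CPA1 and 11.8, 7.88 and 13.2 in CPA18. The 3 groups did not overlap, with CPA1 on top and CPA18 at the bottom. The change was 2.66 ± 0.30 at CPA1 against control, or 6.33-fold, and -1.59 ± 0.31 at CPA18. From 1 h to 18 h Fos mRNA fell by 4.25 ± 0.32 on the log2 scale, the second lowest value of all 8915 genes, to a level 19.1-fold lower. Ribosome footprints on Fos were 67.6, 93.3 and 38.5 RPKM in control, 543, 803 and 384 in CPA1 and 22.6, 21.01 and 46.2 in CPA18. CPA1 stood apart from the other groups, while the CPA18 library of experiment 3 lay inside the control range. Read counts behind the CPA18 footprints were only 8, 9 and 54.

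Fosb (NM_008036.2, chr7:19302696-19310045, minus strand) was scarce in control and had the largest footprint gain of the 10. Its mRNA-seq values were 4.64, 7.35 and 9.49 RPKM in control, 50.7, 54.6 and 46.7 in CPA1 and 1.53, 4.62 and 4.32 in CPA18. The 3 groups did not overlap, though CPA18 came close to the lowest control library, and the change was 2.85 ± 0.33 at CPA1 and -1.03 ± 0.34 at CPA18. In Ribo-seq the values were 1.65, 6.36 and 5.99 in control, 70.5, 69.6 and 52.0 in CPA1 and 6.41, 5.30 and 3.38 in CPA18. The footprint change of 3.74 ± 0.27 at CPA1 is 13.3-fold and the second highest of 5913 genes. Fosb passed the Ribo-seq count minimum only through its CPA1 reads, with 51 reads over the 3 control libraries and 15 over the 3 CPA18 libraries. Control and CPA18 footprints overlapped (change -0.067 ± 0.461). The deposited table splits Fosb over near-identical transcripts, which is why summed values are used.

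Jun, Junb and Jund encode the Jun proteins, which pair with each other or with Fos proteins. Jun (NM_010591.2, chr4:95049036-95052222, minus strand) stayed raised at 18 h. Its mRNA-seq values were 15.1, 12.2 and 3.65 RPKM in control, 65.4, 59.5 and 34.3 in CPA1 and 23.5, 22.6 and 24.95 in CPA18. The 3 groups did not overlap, in the order control, CPA18, CPA1. The change was 2.49 ± 0.34 at CPA1 and 1.43 ± 0.34 at CPA18, the largest value at CPA18 among the 10 genes. Footprints were 27.9, 32.1 and 11.01 RPKM in control, 148, 190 and 77.3 in CPA1 and 54.2, 29.4 and 49.9 in CPA18. Here the CPA18 library of experiment 2 lay within the control range (change at CPA18 1.15 ± 0.24, higher in 2 of 3 experiments). Leaving out experiment 3 gave an mRNA change of 0.78 and a footprint change of 0.44.

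Junb (NM_008416.3, chr8:84976909-84978748, minus strand), whose protein is a weaker transcriptional activator than Jun, followed the same pulse. Its mRNA-seq values were 9.39, 55.2 and 61.2 RPKM in control, 151, 281 and 244 in CPA1 and 28.4, 83.3 and 77.1 in CPA18. All CPA1 libraries were above the rest, and control and CPA18 overlapped. The control library of experiment 1 was low for Junb, so the change at CPA1 was 4.01 within experiment 1 and 2.35 and 2.00 within the others, and 2.58 ± 0.30 in the fit. Its footprints went from 29.1, 67.2 and 51.2 RPKM in control to 356, 543 and 226 in CPA1, and stood at 55.0, 18.7 and 60.8 in CPA18. At CPA18 Junb mRNA stood at 0.62 ± 0.29 against control and its footprints at 0.039 ± 0.260, and the sign of the latter changed in 10 of the 14 other settings tried.

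Jund (NM_010592.5, chr8:70697739-70700616, plus strand) is the family member that most cells keep at a steady level. It was the exception here in mRNA-seq, with 83.6, 250 and 225 RPKM in control, 112, 218 and 223 in CPA1 and 86.0, 312 and 383 in CPA18. All 3 groups overlapped, and the libraries of experiment 1 were the lowest in each treatment. The mRNA change was 0.085 ± 0.244 at CPA1, with the opposite sign without experiment 1 or without the replicate block, and 0.40 ± 0.24 at CPA18, with the opposite sign under TMM scaling. Its footprints, in contrast, were higher with CPA in every experiment, from 55.1, 65.8 and 99.5 RPKM in control to 99.9, 140 and 167 in CPA1 and 136, 121 and 183 in CPA18. The lowest CPA1 library was just above the highest control library, and the changes were 0.89 ± 0.18 at CPA1 and 1.006 ± 0.184 at CPA18. Between CPA18 and CPA1 the sign of the Jund mRNA value (0.32 ± 0.24) depended on the scaling, being below 0 with TMM, with the size factors of DESeq2, with library totals that leave out Ins1, Ins2 and Lars2, and with libraries centred on their median gene.

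The make-up of the AP-1 transcripts was compared as the share of each gene in their summed level. Fos and Fosb together made up 18.0% ± 12.6 of the summed RPKM of the 5 genes in control mRNA-seq (SD, n = 3), 37.0% ± 11.8 in CPA1 and 5.07% ± 3.27 in CPA18. The control and CPA1 ranges overlapped, and CPA18 lay below both. Within experiments 1, 2 and 3 the share rose from 32.5% to 50.1%, from 12.5% to 33.6% and from 9.1% to 27.4% between control and CPA1. Jund made up 63.9% ± 10.1, 25.1% ± 7.64 and 68.5% ± 10.3, with overlap between control and CPA18. In Ribo-seq the Fos and Fosb share was 32.5% ± 9.43, 49.5% ± 1.23 and 12.8% ± 2.01, and the 3 ranges did not overlap. The Jund share of footprints was 34.5% ± 12.2, 11.5% ± 5.93 and 54.9% ± 6.31, also without overlap. The summed footprint level of the 5 genes was 218 ± 43 RPKM in control, 1290 ± 425 in CPA1 and 271 ± 74 in CPA18.

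**Figure D2:**
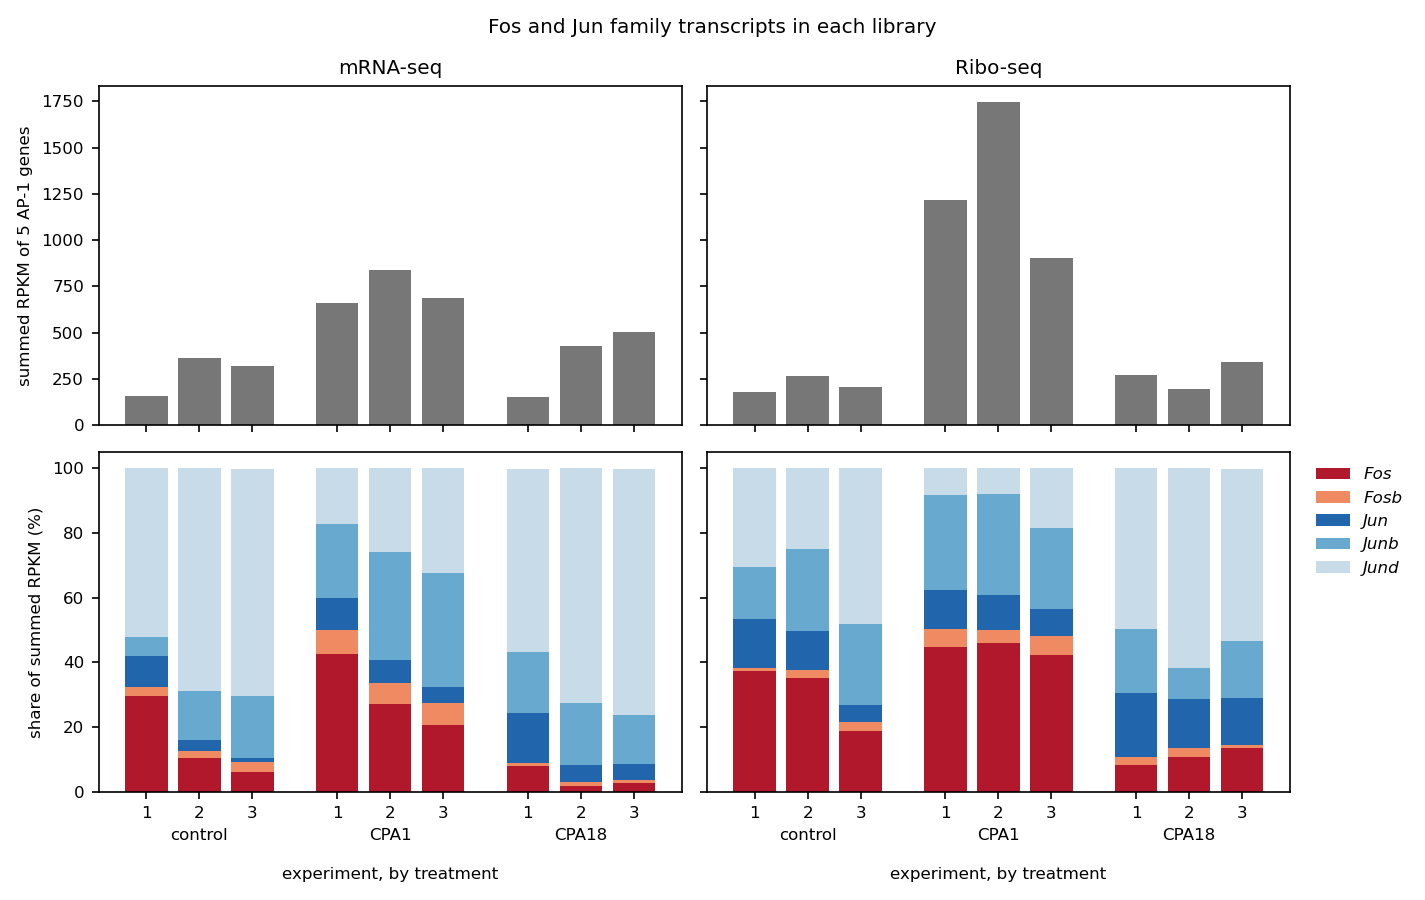
Upper panels show the summed RPKM of Fos, Fosb, Jun, Junb and Jund in each library, and lower panels the share of each gene in that sum (%), with mRNA-seq on the left, Ribo-seq on the right and experiments 1 to 3 within each treatment. The Fos segment (dark red) is taller at CPA1 than at CPA18 in each experiment, and Jund (pale blue) takes most of the sum in the control and CPA18 mRNA-seq libraries.

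Egr1 (NM_007913.5, chromosome 18), a zinc finger factor, and Nr4a1 (NM_010444.2, chr15:101266846-101274795, plus strand), an orphan nuclear receptor, ended below their control levels. For Egr1 the mRNA-seq values were 90.6, 88.7 and 29.9 RPKM in control, 363, 281 and 215 in CPA1 and 22.5, 22.4 and 27.5 in CPA18. The groups did not overlap, although in experiment 3 the CPA18 value was close to its control. Egr1 changed by 2.11 ± 0.30 at CPA1 and by -1.38 ± 0.30 at CPA18. Its footprints were 122, 212 and 58.0 RPKM in control, 706, 769 and 327 in CPA1 and 38.8, 27.3 and 68.2 in CPA18. CPA18 footprints were below control in experiments 1 and 2 and above it in experiment 3 (change -1.10 ± 0.22, or -0.43 without experiment 2 and -2.34 without experiment 3).

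Nr4a1 had the steepest loss of any gene tested between 1 h and 18 h. Its mRNA-seq values were 12.9, 71.0 and 79.8 RPKM in control, 117, 92.1 and 205 in CPA1 and 1.59, 14.5 and 6.58 in CPA18. CPA1 lay above every control library, and CPA18 lay below control within each experiment, although the control library of experiment 1 fell inside the CPA18 range. The gain at CPA1 was uneven, at 3.19, 0.37 and 1.36 within experiments 1, 2 and 3, with a fitted value of 1.63 ± 0.41, or 0.96 without experiment 1. The value at CPA18 was -2.75 ± 0.44 against control and -4.38 ± 0.47 against CPA1, the lowest of 8915 genes. Control and CPA18 footprints of Nr4a1 overlapped too. They were 20.2, 37.4 and 108 RPKM in control, 185, 212 and 268 in CPA1 and 4.70, 5.83 and 23.5 in CPA18. Here too the CPA18 value against CPA1 was the lowest of all genes tested, at -4.29 ± 0.29, although it rests on 2, 3 and 33 reads in CPA18.

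Ier2 (NM_010499.4, chr8:84661331-84662852, minus strand) encodes a small nuclear protein that is induced early by growth factors. Its mRNA-seq values were 32.4, 119 and 63.9 RPKM in control, 244, 420 and 378 in CPA1 and 41.8, 123.1 and 167 in CPA18. CPA1 did not overlap either of the others, and control and CPA18 did overlap. The change was 2.41 ± 0.29 at CPA1 and 0.61 ± 0.29 at CPA18, higher in 3 of 3 experiments both times. Its footprints were 36.4, 70.5 and 35.9 RPKM in control, 323, 529 and 259 in CPA1 and 54.1, 76.7 and 143 in CPA18. The footprint change at CPA18 was 1.16 ± 0.24, with 0.57, 0.12 and 1.99 within experiments 1, 2 and 3 and a fitted value of 0.29 without experiment 3.

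Btg2 (NM_007570.2, chr1:134074865-134079155, minus strand) is an antiproliferative protein that recruits mRNA deadenylases, and Dusp1 (NM_013642.3, chr17:26505591-26508472, minus strand) is a phosphatase that switches MAP kinases off. Btg2 had mRNA-seq values of 31.1, 21.5 and 17.2 RPKM in control, 159, 108 and 68.2 in CPA1 and 12.0, 10.8 and 9.92 in CPA18, with no overlap between any groups. It changed by 2.23 ± 0.26 at CPA1 and -1.04 ± 0.26 at CPA18. Its footprints were 21.7, 23.03 and 14.1 RPKM in control, 217, 258 and 68.2 in CPA1 and 13.5, 15.97 and 20.5 in CPA18. Control and CPA18 footprints overlapped (0.071 ± 0.291), a value whose sign changed in 9 of 14 other settings.

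Dusp1 had the smallest mRNA gain at CPA1 after Jund. Its mRNA-seq values were 19.7, 42.4 and 31.1 RPKM in control, 84.3, 116 and 75.2 in CPA1 and 12.8, 35.2 and 30.2 in CPA18. CPA1 stood apart, and CPA18 overlapped control, with changes of 1.62 ± 0.29 and -0.27 ± 0.29. Its footprints were 32.5, 33.6 and 26.96 RPKM in control, 147, 194 and 50.1 in CPA1 and 6.10, 12.6 and 20.4 in CPA18, with no overlap between the 3 groups. The footprint change at CPA18 was -0.85 ± 0.34, or -1.78 without experiment 3, and the CPA18 values rest on 2, 5 and 22 reads.

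**Figure D3:**
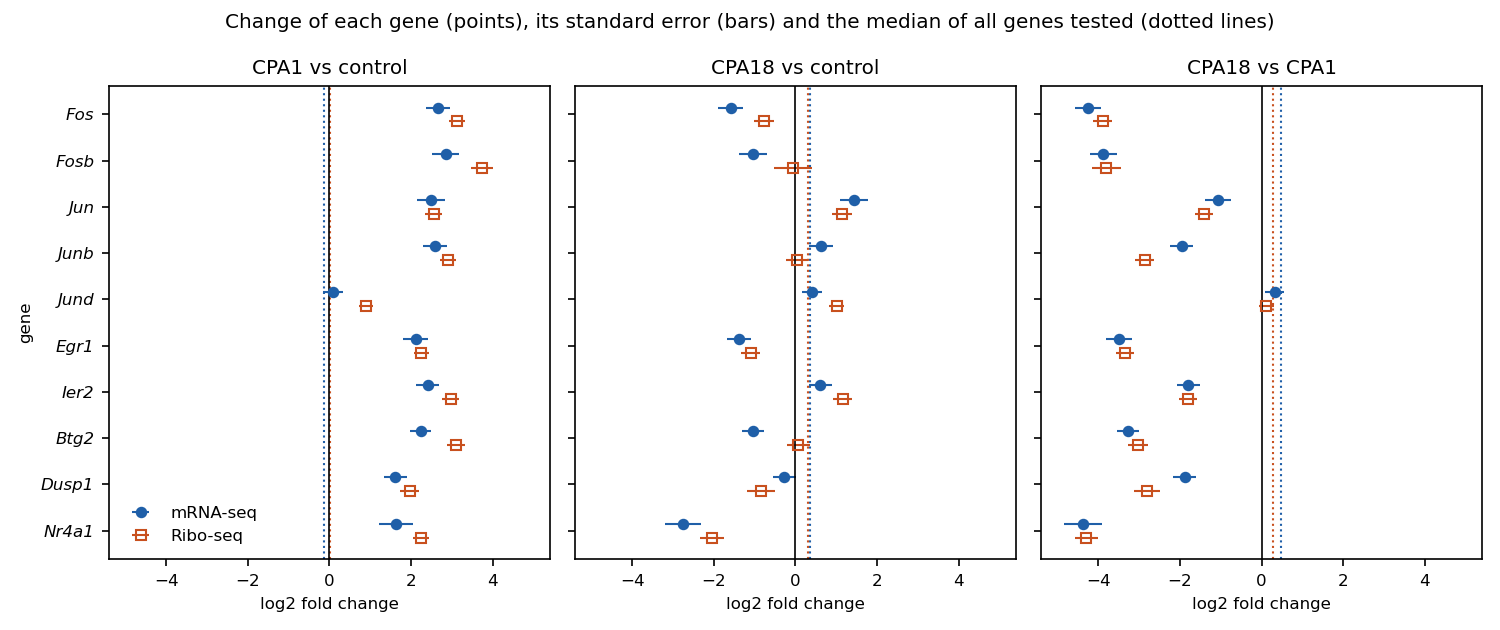
Log2 fold change (x axis) of each gene with its standard error in 3 comparisons, mRNA-seq as filled blue circles and Ribo-seq as open orange squares, with dotted lines at the median of all genes tested in that assay. At CPA1 the 10 genes lie above 0 (Jund mRNA at 0.085), and at CPA18 against CPA1 every gene but Jund lies below -1.

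For CPA1 against control the 10 genes had a median mRNA change of 2.32, beside -0.14 over all genes tested, and a median footprint change of 2.73, beside 0.027. Groups did not overlap upwards for 9 of the 10 in mRNA-seq (1.79% of all genes) and for 10 in Ribo-seq (10.2%). Of the 10, 8 passed an adjusted p of 0.05 in mRNA-seq (edgeR quasi-likelihood), all with higher values, where 0.191% of all genes passed in that direction. In Ribo-seq 10 passed, where 4.31% of all genes passed. As the genes were chosen on such values, nothing is read from these counts or from those of the other comparisons. In mRNA-seq 0 members passed in a fit without experiment 1 and 0 in a fit without the replicate block. In both of these fits 0 of all 8915 genes passed in either direction, and 8 members had an unadjusted p under 0.05. Under DESeq2 9 members passed, beside 35 genes higher and 3 lower of all 8915.

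At CPA18 against control the median mRNA change of the 10 genes was -0.65 beside 0.36 for all genes, and the median footprint change -0.014 beside 0.31. In mRNA-seq Jun passed with a higher value (22.5% of all genes did) and Fos, Fosb, Egr1, Btg2 and Nr4a1 passed with lower ones (7.95% did). In Ribo-seq Jun, Jund and Ier2 passed with higher values (26.3% of all genes) and Fos, Egr1, Dusp1 and Nr4a1 with lower ones (9.13%). Of the mRNA values, Jun did not overlap upwards (15.3% of all genes) and 4 members did not overlap downwards (5.42%). Of the footprint values, Jund did not overlap upwards (30.3%) and Dusp1 downwards (11.7%). The control libraries are shared with the comparison at 1 h, and with TMM the median gene stood at -0.084 in mRNA-seq and 0.034 in Ribo-seq. Without the replicate block 0 members passed in mRNA-seq, with 5 at an unadjusted p under 0.05, beside 107 genes higher and 35 lower of all 8915. Under DESeq2 in Ribo-seq 1 passed in each direction, beside 556 and 602 of 5913 genes. In mRNA-seq 1 passed higher and 2 lower without experiment 1, beside 1516 and 219 of all genes. Without experiment 2 these counts were 2 and 5, beside 1202 and 420, and without experiment 3 0 and 4, beside 725 and 695. In Ribo-seq the member counts were 3 and 2, 3 and 1, and 1 and 4. Over all genes they were 1123 and 399, 946 and 305, and 1199 and 404. Between CPA18 and CPA1 the median was -2.62 in mRNA-seq beside 0.48 for all genes, and 9 members passed with lower values in either assay, where 4.59% of genes in mRNA-seq and 7.95% in Ribo-seq did. Without the replicate block 5 passed with lower values in mRNA-seq, beside 27 of all 8915 genes. The same 9 as in the paired fits, without Jund, did not overlap downwards in either assay (4.88% and 9.88% of all genes).

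Ribosome occupancy (ribo-ocp, Ribo-seq over mRNA-seq) asks whether footprints changed more than the mRNA. At CPA1 the fitted change was above 0 for all 10 genes, from 0.054 ± 0.415 for Jun to 0.95 ± 0.44 for Fosb, with a median of 0.52 beside 0.13 over all 5762 genes. The signs for Jun, Egr1 and Dusp1 were not kept in every other setting. Jund had log2 occupancies of -0.60, -1.93 and -1.18 in control and -0.17, -0.64 and -0.42 in CPA1, higher in 3 of 3 experiments by 0.81 ± 0.31. For Btg2 they were -0.52, 0.099 and -0.29 in control and 0.45, 1.25 and 0.00099 in CPA1, also higher in 3 of 3 experiments by 0.87 ± 0.35. Fosb was the member without overlap between control and CPA1 (4.23% of all genes did not overlap upwards), moving from -1.50, -0.21 and -0.66 to 0.47, 0.35 and 0.15. By edgeR 0 members passed an adjusted p of 0.05 in this ratio, where 0.226% of genes passed, and 3 had an unadjusted p under 0.05 (6.46% of genes). DESeq2 and limma also passed 0 members, with 1 at an unadjusted p under 0.05 in each. In simulated data 7% of changes of 1 on the log2 scale were recovered in this ratio by edgeR. Counts of 0 therefore say little about changes of that size.

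At CPA18 the occupancies spread widely. Those of Nr4a1 were 1.56, -1.32 and 1.84, and those of Junb were 0.95, -2.15 and -0.34. Dusp1 was the lowest of the 10 against control (-0.62 ± 0.48), with occupancies of 0.72, -0.33 and -0.20 in control and -1.07, -1.48 and -0.57 in CPA18, which did not overlap (4.51% of all genes did not overlap downwards). Btg2 was the highest (1.08 ± 0.42), with 0.17, 0.57 and 1.05 in CPA18, all above its control values (3.16% upwards). By edgeR 0 members passed at CPA18 against control, where 0.625% of genes passed, with 1 at an unadjusted p under 0.05 (9.27%). Between CPA18 and CPA1 0 passed (0.0868% of genes), with 2 at an unadjusted p under 0.05 (6.32%). DESeq2 and limma (pseudocount 0.5) passed 0 in both, with 2 and 1 at an unadjusted p under 0.05 at CPA18 and 0 and 1 between CPA18 and CPA1.

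**Figure D4:**
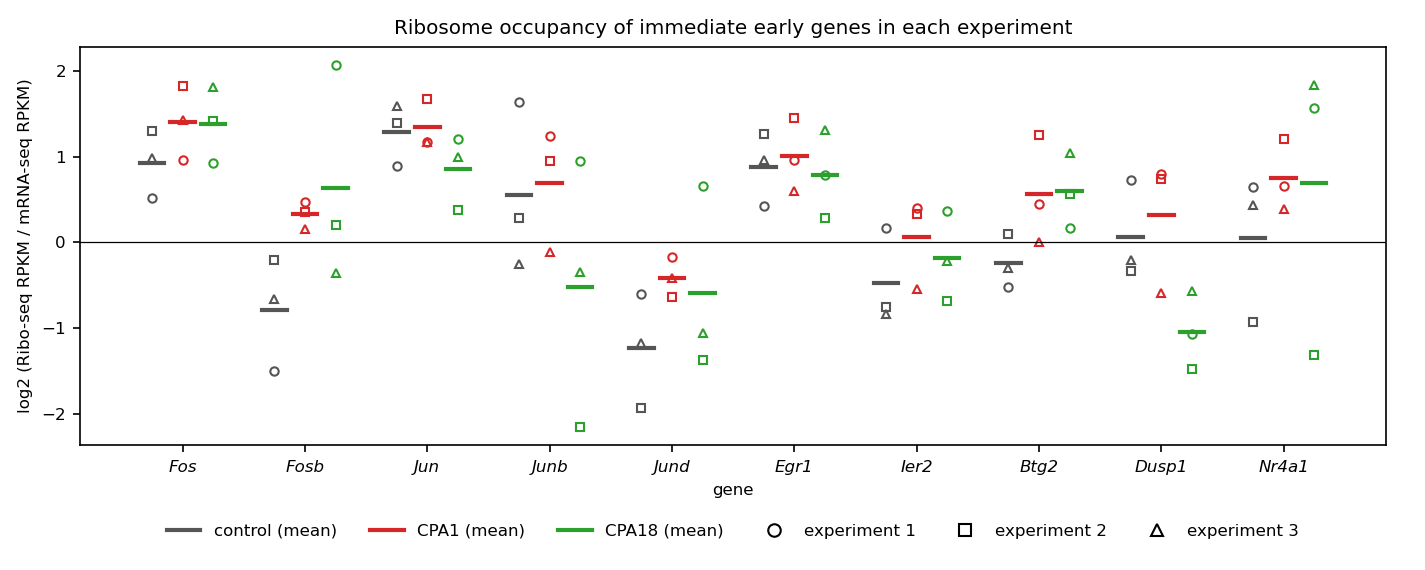
Log2 ratio of Ribo-seq to mRNA-seq RPKM (y axis) for each gene in control (grey), CPA1 (red) and CPA18 (green), 1 point per experiment and a bar for the mean of 3. CPA1 means lie above control means for all 10 genes, and the CPA18 points of Junb and Nr4a1 span more than those of the other treatments.

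A wider list of 53 further immediate early genes, of which 42 could be tested in mRNA-seq and 37 in Ribo-seq, was examined beside the 10. This list and the other lists below were also drawn up with earlier results of these libraries known. Their counts and p-values are therefore no independent test. At CPA1 4 of the 42 rose and 0 fell in mRNA-seq (edgeR, adjusted over all 8915 genes, 0.191% of which rose). Of the 42, 24 had an unadjusted p under 0.05. Nothing is read from this count, as the share of all genes at that threshold is not given here. Atf3, a stress-induced bZIP repressor, rose by 3.83 ± 0.48 (adjusted p = 0.000104), from 0, 4.60 and 1.47 RPKM to 30.8, 24.7 and 37.1. Egr4, a relative of Egr1, rose by 2.41 ± 0.33 (adjusted p = 0.000347), from 12.4, 36.6 and 23.6 to 90.01, 174 and 109 RPKM. Zfp36, which binds AU-rich elements and promotes mRNA decay, rose by 1.85 ± 0.32 (adjusted p = 0.00808), and Arc, a synaptic cytoskeletal protein, rose by 1.86 ± 0.34 (adjusted p = 0.0142). Each of the 4 was higher in 3 of 3 experiments. In a fit without experiment 1 the count was 0, and in a fit without the replicate block it was 0 as well. Both of these fits called 0 of all 8915 genes in either direction. DESeq2 called 9 genes of the list, beside 35 higher and 3 lower of all 8915.

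In Ribo-seq 13 of the 37 genes passed the count minimum only with their CPA1 reads. At CPA1 17 of the other genes rose, beside 4.31% of all genes tested, and 0 of the 37 fell. Of the 13, 7 rose as well, among them Zfp36, but a gene that passes only through CPA1 has to be high there. The smallest p-values belonged to Egr4 (3.22 ± 0.23), Fosl2 (2.31 ± 0.22), Atf3 (3.39 ± 0.43), Per1 (2.10 ± 0.27), Zfp36 (2.61 ± 0.33) and Sik1 (1.87 ± 0.25), with adjusted p from 3.31e-25 to 1.2e-09 by edgeR. Fosl2 is a Fos family member, Per1 a clock repressor and Sik1 a kinase that restrains CREB co-activators. Sik1 footprints were 7.54, 8.80 and 29.6 RPKM in control, 60.9, 49.0 and 39.5 in CPA1 and 1.32, 1.09 and 6.79 in CPA18. DESeq2 called 12 genes of the list and limma (pseudocount 0.5) 13, all higher, beside 144 and 117 of all 5913 genes called higher.

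At CPA18 15 of the 42 rose and 4 fell against control in mRNA-seq (22.5% and 7.95% of all genes). The share that rose was above that of all genes and the share that fell was near it. Nothing is read from either about the list. TMM scaling, under which the median gene stood at -0.084 and not at 0.36, gave 10 and 11, beside 1088 and 1622 of 8915 genes. Atf3 was higher still, at 46.7, 93.2 and 105 RPKM (5.15 ± 0.47, adjusted p = 3.14e-07). Ier3, a survival gene, rose by 2.25 ± 0.41, Klf10 by 1.77 ± 0.31, Bhlhe40 by 1.66 ± 0.35, the ERK phosphatase gene Dusp6 by 1.64 ± 0.35 and Gadd45g by 1.51 ± 0.29, with adjusted p from 0.000403 to 0.00203 by edgeR. The 4 that fell, named after their values were seen, were Sik1 (-1.61 ± 0.37), Egr4 (-1.55 ± 0.35), the activity-dependent factor Npas4 (-1.28 ± 0.43) and Fosl2 (-1.005 ± 0.282), with adjusted p from 0.00312 to 0.0289. Each lay below control in 3 of 3 experiments. Without the replicate block 1 gene of the list was called, beside 107 higher and 35 lower of all 8915 genes. Without experiment 3 10 were called, beside 725 and 695.

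In Ribo-seq at CPA18 11 of 37 rose and 3 fell against control (26.3% and 9.13% of all genes), both near the background and no result about the list. Atf3 (4.17 ± 0.42), Ier3 (3.34 ± 0.47), Myc (2.57 ± 0.43), Mcl1 (1.502 ± 0.326) and Dusp6 (1.23 ± 0.26) rose, and Sik1 fell by 1.95 ± 0.39, with adjusted p from 4.01e-16 to 9e-05. Atf3, Ier3 and Myc passed the count minimum only with their CPA18 reads, so nothing is read from their rise. The others that fell, named after their values were seen, were Nr4a2 (-1.34 ± 0.52, adjusted p = 0.033), a relative of Nr4a1, and Dusp5 (-0.54 ± 0.21, adjusted p = 0.0356). TMM gave 6 higher and 5 lower, beside 931 and 883 of 5913 genes. Myc, a growth regulator, had 6.10, 4.94 and 1.54 RPKM of footprints in control, 3.22, 7.44 and 7.97 in CPA1 and 17.4, 28.8 and 24.1 in CPA18. DESeq2 called 8 genes, beside 556 higher and 602 lower of all 5913. Fits without experiment 2 or 3 called 7 and 8, beside 946 and 305 and beside 1199 and 404 of all genes.

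From 1 h to 18 h 16 genes of the list fell and 10 rose in mRNA-seq (4.59% of all genes fell and 2486 of 8915 rose). With TMM 22 fell and 2 rose, beside 1279 and 952 of 8915 genes. The smallest p-values were those of Egr4 (-3.96 ± 0.35), Sik1 (-3.30 ± 0.37), Fosl2 (-2.31 ± 0.28), Npas4 (-2.85 ± 0.39), Nr4a2 (-2.57 ± 0.51) and Sgk1 (-1.94 ± 0.39), with adjusted p from 2.17e-07 to 0.00114. In Ribo-seq 16 fell and 2 rose (7.95% of all genes fell and 1242 of 5913 rose). With TMM 22 fell and 2 rose there, beside 790 and 731 of 5913 genes. Egr4 (-4.10 ± 0.32), Sik1 (-3.82 ± 0.37), Fosl2 (-2.57 ± 0.27), Nr4a2 (-3.38 ± 0.46), Dusp4 (-1.06 ± 0.19) and Npas4 (-3.09 ± 0.59) fell with adjusted p from 7.54e-23 to 8.59e-06 by edgeR. CPA18 footprint reads were few for Egr4 (2, 1 and 16), Sik1 (1, 1 and 17), Nr4a2 (0, 3 and 8) and Npas4 (0, 3 and 2). Fosl2 had 15, 9 and 33 and Dusp4 44, 47 and 190. Myc and Ier3, named after their values were seen, rose by 1.97 ± 0.45 and 1.38 ± 0.43 (edgeR, adjusted p = 0.000266 and 0.00852). Some of the fallen genes passed the count minimum only with their CPA1 reads, namely Nr4a2, Klf4 and Tiparp in mRNA-seq. In Ribo-seq these were Nr4a2, Npas4, Plk2, Arc, Zfp36 and Sgk1. Such a gene has to be high at CPA1, so nothing is read from its fall, and both counts of 16 include such genes. Myc and Ier3, which rose in Ribo-seq, fell short of the minimum without their CPA1 reads and also without their CPA18 reads. Nothing is read from their rise either, as they had to be high at CPA18 to pass. In the ribo-ocp ratio 0 genes of the list passed in any of the 3 comparisons by edgeR, DESeq2 or limma, with 5, 2 and 3 at an unadjusted p under 0.05 by edgeR.

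**Figure D5:**
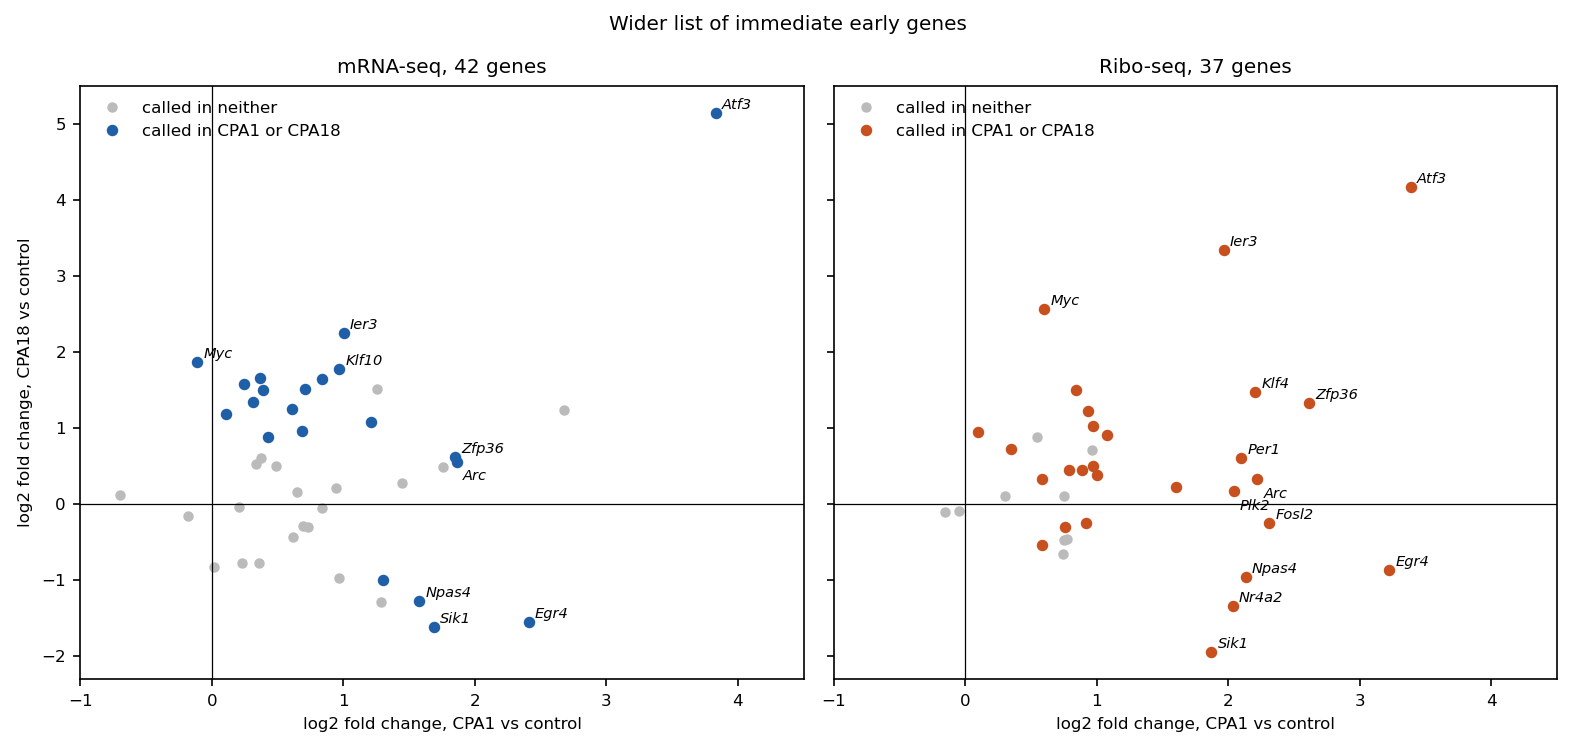
Log2 fold change at CPA18 (y axis) against that at CPA1 (x axis), both relative to the same control libraries, for the genes of the wider list tested in mRNA-seq (42, left) and Ribo-seq (37, right), coloured where an adjusted p was under 0.05 in either comparison. Atf3 and Ier3 are high on the y axis, and Egr4 and Sik1 lie to the right and below 0. In Ribo-seq Atf3 and Ier3 passed the count minimum only with their CPA18 reads.

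The factors and kinases that carry signals to these promoters were examined as 2 lists. Of the SRF and CREB arm (SRF, its ETS and myocardin-related partners, CREB and its co-activators), 0 of 9 tested genes passed at CPA1 in mRNA-seq, with 0 at an unadjusted p under 0.05, and 0 of 5 in Ribo-seq, with 1. Of the RAS, MAP kinase and calcium-dependent kinases and phosphatases, 0 of 19 passed in mRNA-seq, with 2 at an unadjusted p under 0.05, and 0 of 12 in Ribo-seq, with 0. As 0.191% of all genes rose in mRNA-seq, these counts say little, and single values ran as far as -1.17 ± 0.49 for Ppp3cb, a calcineurin subunit. At CPA18 3 kinase genes rose and 1 fell in mRNA-seq (22.5% and 7.95% of all genes). Map2k1, which encodes the ERK kinase MEK1, rose by 1.63 ± 0.35 (adjusted p = 0.00214), Mapk14 (p38α) rose by 0.89 ± 0.25 (adjusted p = 0.0131) and Mapk3 (ERK1) fell by 1.009 ± 0.240 (adjusted p = 0.0044). In Ribo-seq Map2k1 and Map2k2 rose by 1.299 ± 0.314 and 0.67 ± 0.25 and Mapk3 fell by 0.71 ± 0.22 (adjusted p = 0.00046, 0.0295 and 0.00589). Mrtfa, an SRF co-activator, rose by 1.31 ± 0.31 and Mrtfb fell by 1.43 ± 0.52 at CPA18 in mRNA-seq (adjusted p = 0.00411 and 0.0426). Mrtfb had 12.1, 389.5 and 18.2 RPKM in control and 2.39, 59.7 and 22.6 in CPA18, the highest being the control library of experiment 2, whose labels differ. It was lower in 2 of 3 experiments, and its footprints stood at 0.86 ± 0.43. From 1 h to 18 h Srf itself fell by 1.004 ± 0.307 in mRNA-seq and by 1.22 ± 0.44 in Ribo-seq (adjusted p = 0.0175 and 0.0281).

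Other bZIP genes encode proteins that can pair with Fos or Jun. At CPA1 2 of 10 rose in mRNA-seq (0.191% of all genes), Atf3 (above) and Atf4, the central factor of the integrated stress response (1.46 ± 0.26, adjusted p = 0.00909), and 4 of 6 rose in Ribo-seq (4.31%), with Atf4 at 2.76 ± 0.17, Fosl2 at 2.31 ± 0.22 and Atf3 at 3.39 ± 0.43 the smallest in p. The occupancy of Atf4 rose by 1.29 ± 0.31 (adjusted p = 0.0446), which makes it the gene of these lists that passed in that ratio. At CPA18 5 rose and 3 fell in mRNA-seq (22.5% and 7.95%). Jdp2 and Mafk, among those that rose, passed the count minimum only with their CPA18 reads. Atf4 stood at 523, 1440 and 1504 RPKM against 69.5, 130 and 172 in control (3.19 ± 0.27, adjusted p = 1.38e-07), and Mafa, a β-cell activator of insulin, fell by 2.25 ± 0.24 (adjusted p = 2.45e-06). From 1 h to 18 h Mafa fell by 2.32 ± 0.24 and Fosl2 by 2.31 ± 0.28, and Atf4 rose by 1.73 ± 0.25 (adjusted p from 1.62e-06 to 5.87e-05). In Ribo-seq at CPA18 3 of 6 rose and 1 fell against control (26.3% and 9.13%). Atf3 and Atf7, among those that rose, passed the count minimum only with their CPA18 reads.

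Of the mRNA decay factors, which include proteins that bind AU-rich elements and subunits of the CCR4-NOT deadenylase, 1 of 15 rose in mRNA-seq at CPA1 (0.191% of all genes), Zfp36 (above), and 3 of 14 rose in Ribo-seq (4.31%). These were Zfp36, which passed the count minimum only with its CPA1 reads, Btg1 (0.88 ± 0.21, adjusted p = 0.000998) and Zfp36l2 (1.10 ± 0.33, adjusted p = 0.0209). At CPA18 Cnot6l fell by 1.91 ± 0.42 in mRNA-seq (adjusted p = 0.00273) and 0 rose. In Ribo-seq at CPA18 Zfp36l2 rose by 1.49 ± 0.35, Zfp36 rose by 1.33 ± 0.43 and Cnot2 fell by 1.78 ± 0.56 (adjusted p = 0.000289, 0.0106 and 0.00827) among 4 of 14 called (26.3% and 9.13% of all genes were called higher and lower). From 1 h to 18 h 1 of 15 rose and 2 fell in mRNA-seq (2486 of 8915 genes rose and 4.59% fell). Zfp36 fell by 1.23 ± 0.29, Cnot6l fell by 1.67 ± 0.42 and Cnot8 rose by 1.09 ± 0.31 (adjusted p = 0.00384, 0.00546 and 0.0127). In Ribo-seq 0 of 14 rose and 3 fell (1242 of 5913 genes rose and 7.95% fell). Of these, Zfp36 (-1.28 ± 0.37) and Cnot2 passed the count minimum only with their CPA1 reads, so nothing is read from their fall. Atf3, Fosl1, Fosl2, Maff, Srf, Zfp36, Zfp36l1, Btg1 and Tob1 stand in more than 1 of these lists.

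Within the 10 genes the mRNA-seq profiles were most alike for Fosb and Btg2 (Pearson r of log2(RPKM + 0.5) over 9 libraries after removal of the experiment means 0.993) and for Fos and Egr1 (0.992). Those of Jun and Ier2 (0.917) and of Junb and Ier2 (0.939) were alike as well, whereas Jund had no r above 0.29 with any other member. Among 5711 genes outside all lists, those most like Egr1 were Acta2 (0.955), Rgs3 (0.945) and Macir (0.937). Those most like Ier2 were Cebpd (0.956), Cxcl12 (0.918) and Kctd20 (0.885), and those most like Jund were Irf2bp1 (0.970), Tmem189 (0.960) and G3bp1 (0.957). All these points share the same libraries, so the values are descriptive.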

How the data were processed

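MIN6 libraries (mRNA-seq and Ribo-seq, 3 experiments) were grouped by title. In 2 control libraries of experiment 2 title and description name different assays, and they were placed by title. The authors aligned reads with Bowtie2 to GRCm38 transcripts and deposited raw counts per RefSeq transcript, RPM, RPKM and transcript lengths in nucleotides. RPKM recomputed from the counts differed by at most 0.00111 (log2). Of 30741 transcripts, 30232 matched a gene with and 478 without their version, and 31 did not match. Counts and RPKM were summed per gene.

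Genes with at least 90 summed reads over the 9 libraries of an assay were tested with edgeR 4.0.16 (R 4.3.3, quasi-likelihood, total count as library size, treatment plus experiment). For ribo-ocp the assay-by-treatment interaction was tested, with blocks for experiment by assay. Benjamini-Hochberg adjustment ran over all genes, with 0.05 as threshold. The labels' number marks a batch, and deviations from treatment means correlated within experiments (mean r 0.570 in mRNA-seq, lowest 0.302 of 9 pairs, and 0.166 in Ribo-seq, lowest 0.0786). The study's methods call the 3 experiments independent. The scripts were tested on simulated data with 200 genes changed at CPA1. Of changes of 1 on the log2 scale, 8% were recovered in mRNA-seq, 57.5% in Ribo-seq and 7% in ribo-ocp. Of changes of 2, the shares were 87.5%, 97% and 83.5%. Alternatives were TMM, DESeq2 1.42.0, limma 3.58.1 on log2(RPKM + 0.5 or 1), other filters, library totals, transcript choices, no block, and leaving out experiments or a library, and 2 scalings were added after seeing the data.

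The members and lists were chosen with earlier results of these data known. Named were all 10 members in each comparison, from the wider list at most the 6 and from each other list at most the 3 called genes with the smallest p, and the 3 genes most like each of Jund, Ier2 and Egr1 (mean of at least 5 RPKM). Promoter and transcript sequences are from RefSeq (GRCm38.p6, pysam 0.24.0). Figures were drawn with matplotlib 3.10.9.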

Additional observations from a re-analysis of the deposited data

How the results depend on the processing

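Counts of called genes of the wider list under some other settings were as follows, and only some of them moved by over 1.5 times. Counts over all genes moved under these settings too. The cause was not tested beyond what each setting changes. In mRNA-seq at CPA1 (4 called) DESeq2 called 9, no filter on low counts 10, and leaving out 1 experiment 0 to 10. At CPA18 (19 called) leaving out 1 experiment gave 10 to 17, and between CPA18 and CPA1 (26 called) 15 to 19. In Ribo-seq at CPA1 (24 called) DESeq2 called 12, limma with a pseudocount of 0.5 13 and with 1 14, and leaving out 1 experiment gave 15 to 21. At CPA18 (14 called) DESeq2 called 8, and leaving out 1 experiment gave 7 to 11. The fit without the replicate block called 0, 1 and 5 genes of the list in mRNA-seq at CPA1, at CPA18 and between them, and 17, 12 and 15 in Ribo-seq. Of all 8915 genes it called 0 higher and 0 lower, 107 and 35, and 82 and 27 in mRNA-seq. Of all 5913 genes it called 136 and 81, 1308 and 424, and 1017 and 380 in Ribo-seq. Leaving out the control mRNA-seq library of experiment 2, whose labels differ, gave 5 at CPA1 and 16 at CPA18. Ribo-ocp counts were 0 in every setting run.

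Among the 10 members, 1255 of their values under other settings moved by less than the SD between experiments and 45 by more, and no called member changed sign. Depth limits the CPA18 footprints most, where Fos, Fosb, Dusp1 and Nr4a1 had fewer than 10 reads in at least 2 of 3 libraries.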
